A study of Mus musculus with 8 samples.

Results

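Adenosine and prostaglandin D2 are sleep-promoting signals of the brain, and their receptors, enzymes and transporter were followed through 7 genes. The genes were taken by symbol from the deposited gene table, where all 7 of 7 had a row among 54532 genes: Adora1, Adora2a, Nt5e, Slc29a1, Adk, Ada and Ptgds. The libraries were made from tissue labelled brain, described in the study design as whole brain, of male mice aged 3 months. One group was labelled wild type (WT) and the other Nsun5 knockout (KO), after a methyltransferase of ribosomal RNA, and the study asked how its loss acts on the brain and on sleep. WT and KO stand throughout for libraries with those labels. The protocol names 5 mice of each genotype, from 1 litter, all anaesthetised with pentobarbital sodium (2%, 50 mg/kg). The strain and the kind of Nsun5 allele are not given in the sources used here. Ribosome profiling, which sequences the messenger RNA (mRNA) fragments that ribosomes protect from nuclease, gave 4 WT and 4 KO footprint libraries, and 8 mRNA libraries carry matching names. Nothing in the labels ties a library to an animal, so p-values here reflect spread among libraries, which may be technical.

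Extracellular adenosine builds up with neuronal activity during waking and acts on G-protein-coupled receptors, of which the A1 receptor is inhibitory and widespread and the A2a receptor is stimulatory and concentrated in the striatum. Caffeine blocks both. Adenosine is formed outside cells from AMP, passes membranes through equilibrative transporters, and is removed inside cells by phosphorylation or deamination. Prostaglandin D2 is made from prostaglandin H2 by lipocalin-type synthase in the leptomeninges, choroid plexus and oligodendrocytes, and its sleep-promoting action runs through the DP1 receptor on meningeal cells and adenosine.

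The mRNA libraries held 15.6 to 17.4 M (mega) gene-assigned counts in WT and 16.2 to 17.8 M in KO. Footprint libraries were shallower, with 1.20 to 3.49 M in WT and 0.586 to 1.30 M in KO. These totals cover all genes of the table, microRNAs and other small RNAs among them, so they do not measure depth in coding sequence alone. Nsun5 mRNA did not separate the groups, with a log2 difference KO minus WT of 0.12 ± 0.15 (SE, edgeR adjusted p = 0.820), and its footprints numbered 2, 11, 0 and 6 in WT and 3, 0, 1 and 2 in KO, with a log2 difference of −0.08 ± 1.10 in a fit without a filter (SE, edgeR adjusted p = 0.989). Neither was lower in KO beyond its error, and where the deletion lies in the gene is not given in the sources used here, so these values could not be used to check the labels. WT libraries 1 and 2 stood apart from the other 6 mRNA libraries, with scores of 25.2 and 23.5 on the first principal component (33.0% of the variance) against −15.1 to −4.99. Marker genes of striatal neurons, choroid plexus, leptomeninges, oligodendrocytes, astrocytes, endothelium, microglia, neurons and blood were all detected in the mRNA, and no listed marker was at 0 over the libraries. Summed oligodendrocyte marker mRNA was 1309 to 1424 RPKM in WT and 852 to 1175 in KO, and summed neuronal marker mRNA was 1023 to 1089 in WT and 1182 to 1282 in KO. Neither mRNA sum overlapped between the groups, and their part in the results on the members was not tested. The neuronal list was not uniform, with 7 positive and 2 negative mRNA differences. Mean Snap25 was 339 RPKM in WT and 439 in KO, while mean Gad2 was 59.6 and 44.2. In footprints the neuronal sum overlapped, at 432 to 637 RPKM in WT and 454 to 501 in KO. The oligodendrocyte footprint sum did not, at 608 to 765 and 432 to 546. In bulk tissue, fewer cells of a type and less RNA per cell cannot be told apart.

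Levels are given as RPKM, reads per kilobase of gene length and per M reads, so that genes of different length can be set side by side. In mRNA, averaged over all 8 libraries, the order was Ptgds at 463 RPKM, Adora1 at 31.8, Adora2a at 18.9, Adk at 6.99, Slc29a1 at 3.02, Nt5e at 0.984 and Ada at 0.349. Ptgds ranked 35 and Ada 13472 of 17898 protein-coding genes with any mRNA count. The library ranges of neighbours in this order overlapped between Adora1 and Adora2a and between Adora2a and Adk, and did not overlap for the other pairs. Of the 7 members, 5 passed the filter on low values in each of the mRNA, footprint and translational efficiency fits, while Ada and Nt5e did not. In the mRNA fit 0 members passed an adjusted p of 0.05, as did 0.0% of the 13058 genes tested, and 1 member, Adora1, had an unadjusted p under 0.05, as did 10.5% of all genes tested. DESeq2 called 87 genes in mRNA, with no member among them. The number of members whose WT and KO mRNA values did not overlap was 0, against 5.84% of all genes tested in either direction and 2.24% with KO below WT.

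**Figure D1:**
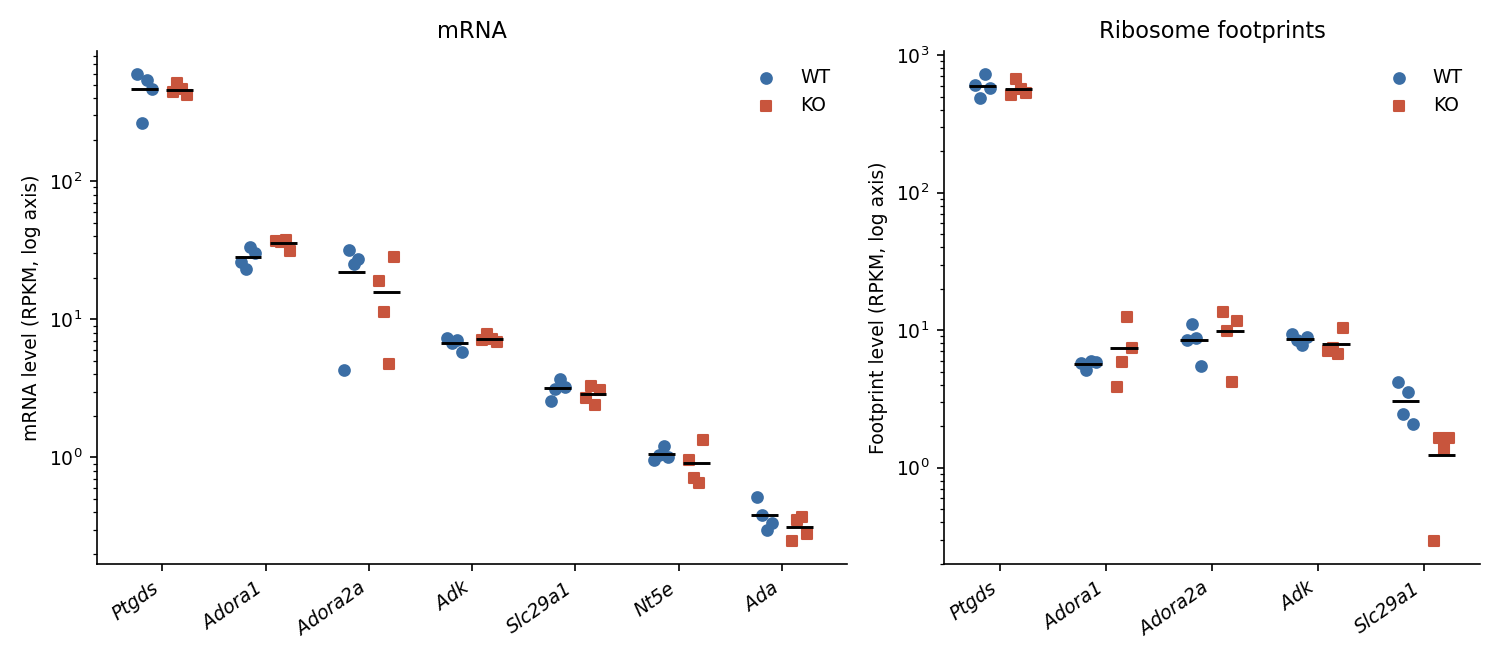
Levels in mRNA of all 7 genes (left) and in footprints of the 5 genes tested (right), in RPKM on a log axis, 1 point per library, with WT in blue, KO in red and black bars at the group means. Ptgds lies far above the others in both kinds of library, Ada lies lowest in mRNA, and Adora2a has the widest spread in mRNA, from 4.30 to 31.6 RPKM.

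Adora1 (ENSMUSG00000042429, mm10 chromosome 1, 134199223 to 134235431, minus strand) encodes the A1 receptor. Its mRNA level was 26.1, 22.9, 33.4 and 30.0 RPKM in WT libraries 1 to 4 and 36.9, 36.1, 37.2 and 31.3 RPKM in KO libraries 1 to 4. The means were 28.1 ± 4.58 in WT and 35.4 ± 2.76 in KO (SD, n = 4 each). KO libraries 1 to 3 lay above every WT library, and KO library 4 lay below WT library 3, so the groups overlapped. The log2 difference KO minus WT was 0.31 ± 0.11 (SE, 95% interval 0.07 to 0.56), with an unadjusted p of 0.0168 that did not pass after adjustment (edgeR adjusted p = 0.406). Without WT libraries 1 and 2, which hold the lowest Adora1 levels, the difference was 0.14. Adora1 footprints were 5.79, 5.13, 5.96 and 5.89 RPKM in WT and 3.86, 5.84, 12.4 and 7.35 RPKM in KO. The KO values surrounded the narrow WT range on both sides, and the highest came from the shallowest library, KO 3, with 39 Adora1 counts. The footprint difference was 0.30 ± 0.27 (SE, 95% interval −0.28 to 0.89, edgeR adjusted p = 0.924), and 0.01 without KO library 3.

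Summed neuronal marker mRNA was higher in KO with no overlap, so it separates the genotypes and no pooled correlation with Adora1 across libraries is given. The mRNA levels most like Adora1 across the 8 libraries, by Pearson correlation of log2 CPM, were Camkk1 (r = 0.989), Rtn4rl1 (0.985) and Asap1 (0.981). After removal of the group means they were Syp, a synaptic vesicle protein (0.988), Dlk2 (0.987) and Chst2 (0.986). These were the top of a search over all protein-coding genes tested and describe the libraries.

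Adora2a (ENSMUSG00000020178, mm10 chromosome 10, 75316877 to 75334784, plus strand) encodes the A2a receptor. Its mRNA level was 4.30, 31.6, 25.1 and 27.3 RPKM in WT and 18.9, 11.3, 4.73 and 28.3 RPKM in KO. WT library 1 lay far below the other WT libraries, KO library 3 was the lowest KO library, and the groups overlapped over most of their range. The log2 difference was −0.49 ± 0.57 (SE, 95% interval −1.76 to 0.78, edgeR adjusted p = 0.805), and it ran from −0.94 without KO library 4 to −0.19 without KO library 3. The coefficient of variation of Adora2a mRNA between libraries was 55.0% in WT and 64.0% in KO, at percentiles 98.0 and 98.6 of the genes tested, whose medians were 10.8% and 9.27%.

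Marker genes of striatal projection neurons, a list that does not hold Adora2a, spread in the same order of libraries. Its 12 genes, among them Penk, Drd1 and Drd2, summed to 166, 764, 541 and 645 RPKM in WT libraries 1 to 4 and to 467, 325, 208 and 728 RPKM in KO. On the log2 scale the correlation with Adora2a mRNA over the 8 libraries was r = 0.990 (two-sided exact permutation p = 2.48e-05, adjusted 0.000198), with rho = 1.0 (exact p = 4.96e-05, adjusted 0.000397). Without WT library 1 and KO library 3, the farthest from the median, r was 0.977, and it was 0.990 with the group means removed. It is 1 of 8 relations computed between members and marker lists. Lrrc10b (r = 0.993), Penk (0.989) and Nexn (0.988) were most like Adora2a in level, and Lrrc10b (0.996), Trhr2 (0.993) and Rasd2 (0.992) after removal of the group means. Nt5e mRNA had r = 0.673 with the same sum (exact p = 0.0667, adjusted 0.133) and rho = 0.810 (exact p = 0.0218, adjusted 0.0436), with r = 0.794 without the same pair of libraries.

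**Figure D2:**
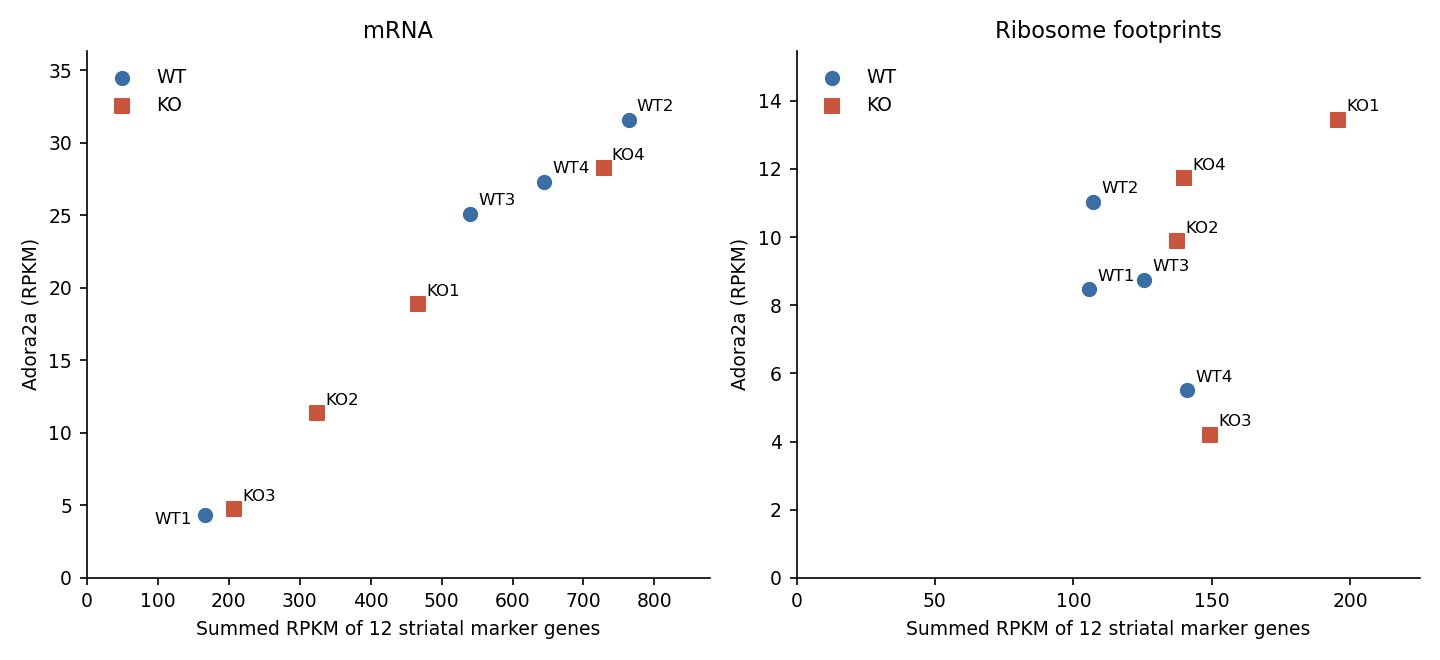
Adora2a level against the summed level of 12 striatal marker genes in mRNA (left) and in footprints (right), both in RPKM on linear axes, 1 labelled point per library, WT in blue and KO in red. In mRNA all 8 libraries follow 1 line from WT library 1 and KO library 3 at the low end to WT library 2 and KO library 4 at the high end, and in footprints no such line appears.

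Footprints spanned a narrower range. Adora2a footprints were 8.47, 11.0, 8.75 and 5.51 RPKM in WT and 13.5, 9.89, 4.20 and 11.7 RPKM in KO, with 7 to 114 counts per library. WT library 1, the lowest WT value in mRNA, sat inside the WT range in footprints. The correlation of Adora2a footprints with Adora2a mRNA of the same library name was r = 0.462 (exact p = 0.234, adjusted 0.732) and rho = 0.452 (exact p = 0.267, adjusted 0.701), and r was −0.176 without WT library 1 and KO library 3. The striatal footprint sum was 106 to 141 RPKM in WT and 137 to 196 in KO, and its correlation with the striatal mRNA sum of the same name was r = 0.0910 (exact p = 0.828, adjusted 0.884) and rho = −0.0238 (exact p = 0.977, adjusted 0.977), with r = −0.407 without WT library 1 and KO library 3. Whether libraries of the same name came from the same piece of tissue is not given in the sources used here. The footprint difference of Adora2a was 0.25 ± 0.30 (SE, 95% interval −0.40 to 0.89, edgeR adjusted p = 0.946). With WT library 4 left out it was 0.096, with KO library 3 left out it was 0.45, and it was 0.49 without WT libraries 1 and 2.

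The order of the receptors differed between the kinds of library. Adora1 mRNA was above Adora2a mRNA in 7 of 8 libraries, at 0.726 to 7.86 times its level. Adora1 footprints were above Adora2a footprints in 2 of 8 libraries, WT 4 and KO 3, at 1.07 and 2.95 times. Both are ratios of RPKM, in which the length is that of the whole gene model for footprints too.

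Nt5e (ENSMUSG00000032420, mm10 chromosome 9, 88327197 to 88372092, plus strand) encodes CD73, the ecto-enzyme that turns AMP into adenosine. Its mRNA level was 0.957, 1.04, 1.21 and 1.01 RPKM in WT and 0.958, 0.711, 0.655 and 1.33 RPKM in KO. KO library 4 was the highest and KO libraries 2 and 3 the lowest of all 8, and the WT range lay within the KO range. The difference in log2(CPM + 0.1) was −0.27 (two-sided exact permutation p = 0.286, n = 4 each). Nt5e footprints numbered 44 over all 8 libraries, 0 to 15 in each. In a fit without a filter on low values their log2 difference was 0.56 ± 0.81 (SE, edgeR adjusted p = 0.809), an error too wide to give a direction.

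Slc29a1 (ENSMUSG00000023942, mm10 chromosome 17, 45585200 to 45599606, minus strand) encodes the equilibrative nucleoside transporter ENT1, which carries adenosine across the cell membrane. It was the only member whose footprints did not overlap between the groups, KO below WT, as in 1.91% of all 8476 genes tested in footprints, where 3.53% did not overlap in either direction. WT libraries 1 to 4 held 31, 33, 41 and 23 Slc29a1 footprint counts and KO libraries 1 to 4 held 1, 13, 3 and 7. Scaled by the authors, these were 4.18, 2.44, 3.56 and 2.06 RPKM in WT and 0.294, 1.64, 1.38 and 1.65 in KO, with means of 3.06 ± 0.980 and 1.24 ± 0.643 (SD, n = 4 each). The highest KO value lay just under the lowest WT value, and KO library 1 rested on 1 read.

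The log2 footprint difference of Slc29a1 was −1.22 ± 0.45 (SE, 95% interval −2.20 to −0.24). Its unadjusted p of 0.0183, a level under 0.05 as 5.52% of all genes tested had, did not pass after adjustment (edgeR adjusted p = 0.875). Among members it was 1 with an unadjusted p under 0.05, 0 members passed the adjusted threshold, and 0.0% of all genes did. DESeq2 called 4 genes in footprints, with no member among them. Over the alternatives the difference stayed between −1.44 and −0.93, and its adjusted p was 0.608 or more.

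Slc29a1 mRNA was 2.57, 3.13, 3.72 and 3.23 RPKM in WT and 2.71, 3.27, 2.40 and 3.10 RPKM in KO, and the groups overlapped. The mRNA difference was −0.16 ± 0.14 (SE, 95% interval −0.47 to 0.16, edgeR adjusted p = 0.738). Endothelial markers, of a cell type that carries ENT1, summed to 77.6 to 94.5 RPKM in WT and 68.6 to 86.6 in KO. The correlation of Slc29a1 mRNA with that sum was r = 0.830 (exact p = 0.00982, adjusted 0.0262) and rho = 0.833 (exact p = 0.0154, adjusted 0.0410), but r was 0.354 without WT library 3 and KO library 3, so it rests on those libraries. In footprints the endothelial sum was 26.4 to 35.7 RPKM in WT and 21.3 to 31.9 in KO, overlapping, and its part in the Slc29a1 footprint result was not tested. Genes most like Slc29a1 in mRNA level were Pfdn5 (r = 0.970), Pex2 (0.964) and Arpin (0.964), and after removal of group means Traf2 (0.982), Chtop (0.981) and Pfdn5 (0.975).

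Adk (ENSMUSG00000039197, mm10 chromosome 14, 21052574 to 21448569, plus strand) encodes adenosine kinase, the main route of adenosine removal in astrocytes. Its mRNA level was 7.26, 6.77, 7.14 and 5.85 RPKM in WT and 7.06, 7.87, 7.21 and 6.80 RPKM in KO. Its log2 difference was 0.08 ± 0.09 (SE, 95% interval −0.11 to 0.27, edgeR adjusted p = 0.776), the narrowest interval among the 5 tested members. Footprints were 9.44, 8.42, 7.80 and 8.92 RPKM in WT and 7.04, 7.46, 6.68 and 10.3 RPKM in KO. KO libraries 1 to 3 lay below every WT library and KO library 4 above them all, with a log2 difference of −0.13 ± 0.17 (SE, 95% interval −0.49 to 0.22, edgeR adjusted p = 0.948). Without KO library 4 the footprint difference of Adk was −0.28, and without KO library 3 it was −0.066. The mRNA difference was 0.020 without WT library 4 and 0.14 without WT libraries 1 and 2. The correlation of Adk mRNA with the summed astrocyte markers was r = 0.387 (exact p = 0.332, adjusted 0.443) and rho = 0.667 (exact p = 0.0831, adjusted 0.111), with r = 0.431 without WT libraries 1 and 2. The astrocyte sum itself was 638 to 776 RPKM in WT and 693 to 746 in KO. Bpnt1 (r = 0.951), Cpxm1 (0.932) and Trim13 (0.930) were most like Adk in level.

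Ada (ENSMUSG00000017697, mm10 chromosome 2, 163726584 to 163750239, minus strand) encodes adenosine deaminase, which turns adenosine into inosine. It was the lowest member, with 18, 12, 10 and 12 mRNA counts in WT and 8, 12, 12 and 10 in KO. WT library 1 was highest and KO library 1 lowest, and the other 6 libraries held 10 or 12 counts. The difference in log2(CPM + 0.1) was −0.26 (two-sided exact permutation p = 0.229, n = 4 each). Ada footprints numbered 3 over all 8 libraries. The fit without a filter gave a log2 difference of 1.54 ± 1.68 (SE, edgeR adjusted p = 0.783), which rests on those 3 reads.

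Ptgds (ENSMUSG00000015090, mm10 chromosome 2, 25466709 to 25470046, minus strand) encodes the lipocalin-type synthase that makes prostaglandin D2 in the brain. Its footprint level, averaged over all libraries, was 584 RPKM and ranked 13 of 16137 protein-coding genes with any footprint. Its mRNA level was 595, 263, 539.7 and 464 RPKM in WT and 445, 516, 460.5 and 419.5 RPKM in KO. WT libraries 1 and 2 were the highest and the lowest of all 8, and the KO libraries lay close together between them. The coefficient of variation was 31.2% in WT and 8.84% in KO, at percentiles 92.1 and 47.3 of the genes tested. The log2 difference was −0.03 ± 0.20 (SE, 95% interval −0.48 to 0.41, edgeR adjusted p = 0.966). Its sign was not settled, at −0.23 without WT library 2 and 0.11 without WT library 1.

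Ptgds footprints were 602, 487, 728 and 577 RPKM in WT and 510, 674, 565 and 526 RPKM in KO. The groups overlapped, and the log2 difference was −0.08 ± 0.21 (SE, 95% interval −0.53 to 0.37, edgeR adjusted p = 0.980). Across libraries of the same name, Ptgds footprints and Ptgds mRNA correlated with r = 0.729 (exact p = 0.0309, adjusted 0.216) and rho = 0.905 (exact p = 0.00456, adjusted 0.0319). Without WT libraries 1 and 2, r was 0.963. This was 1 of 7 relations of that family, and among the 5 members tested Ptgds had the largest r over all 8 libraries, the others running from −0.416 in Adk to 0.462 in Adora2a. Slc29a1 had r = 0.331, which became 0.892 without WT library 1 and KO library 3, while Adora2a had −0.176 without the same libraries. Adora1 had 0.077 without WT libraries 1 and 2, and Adk −0.420 without WT library 4 and KO library 2.

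Marker sums of the cell types known to make this synthase were set beside Ptgds mRNA. Summed choroid plexus mRNA was 235 to 897 RPKM in WT and 33.0 to 929 in KO, and its correlation with Ptgds mRNA was r = −0.119 (exact p = 0.786, adjusted 0.899) and rho = −0.0476 (exact p = 0.935, adjusted 0.935), with r = −0.251 without KO libraries 2 and 4. Ttr alone gave 581 of the mean sum of 607 RPKM in WT and 307 of 322 in KO, so this correlation is mainly that of Ttr. Summed oligodendrocyte mRNA did not overlap between the groups, while Ptgds did, and because that sum separates the genotypes no pooled correlation is given. Leptomeningeal markers summed to 26.5 to 54.4 RPKM in WT and 26.3 to 36.4 in KO and had r = 0.625 with Ptgds (exact p = 0.102, adjusted 0.164) and rho = 0.690 (exact p = 0.0694, adjusted 0.111), and r was 0.326 without WT libraries 1 and 3. Ggact (r = 0.963), Nars (0.948) and Slc22a8, an organic anion transporter (0.945), were most like Ptgds in level.

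**Figure D3:**
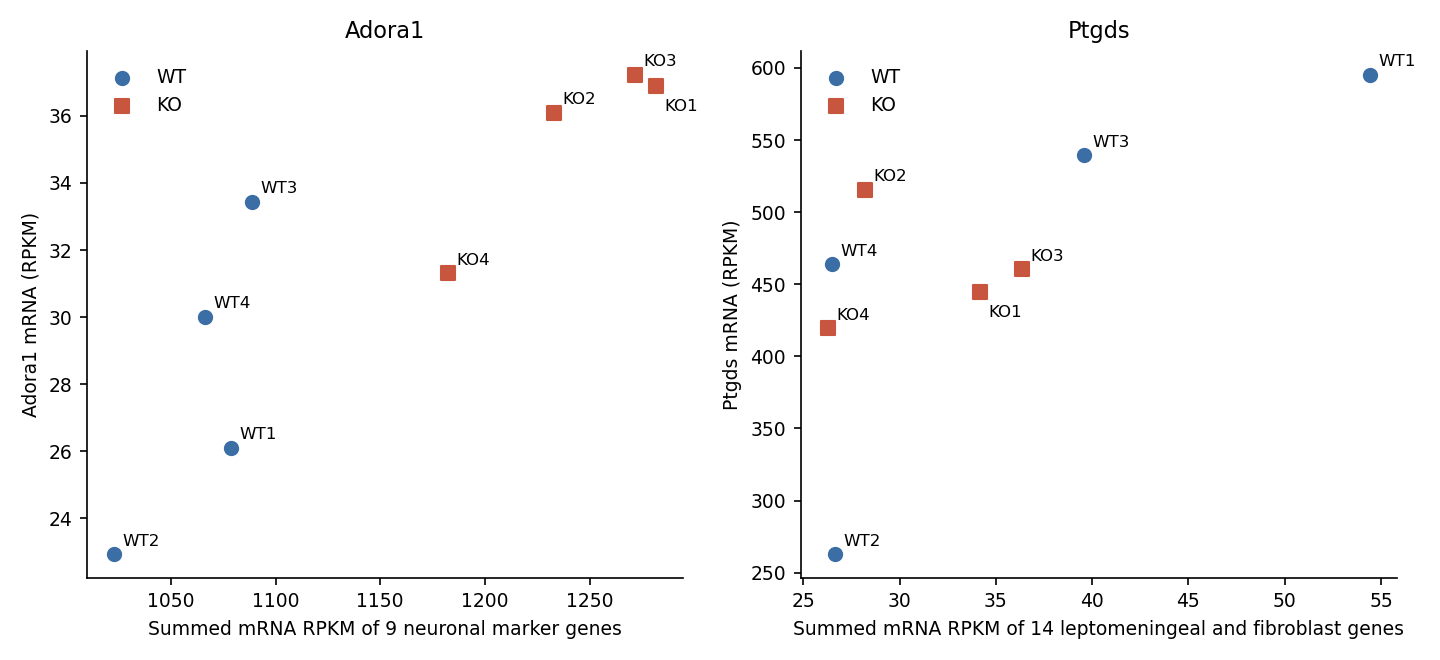
Adora1 mRNA against the summed mRNA of 9 neuronal marker genes (left) and Ptgds mRNA against the sum of 14 leptomeningeal and fibroblast genes (right), in RPKM on linear axes that do not start at 0, 1 labelled point per library. The neuronal sum parts WT, up to 1089, from KO, from 1182, while Ptgds reaches from 263 to 595 RPKM in WT with the KO libraries between.

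The promoters of Ptgds, Adora1 and Adk are printed to show how the start of the most abundant member differs in CpG content from those of a receptor and the kinase. Each is the 250 bases before the first listed start, from RefSeq on GRCm38.p6, 5′ to 3′ on the gene's strand, with CpG dinucleotides in capitals: Ptgds at chr2:25469750-25469999 (minus), Adora1 at chr1:134235458-134235707 (minus) and Adk at chr14:21052324-21052573 (plus).
Ptgds: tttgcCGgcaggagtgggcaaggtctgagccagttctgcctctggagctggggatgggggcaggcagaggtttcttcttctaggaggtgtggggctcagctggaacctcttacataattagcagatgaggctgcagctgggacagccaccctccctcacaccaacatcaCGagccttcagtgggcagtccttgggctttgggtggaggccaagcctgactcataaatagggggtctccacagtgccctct
Adora1: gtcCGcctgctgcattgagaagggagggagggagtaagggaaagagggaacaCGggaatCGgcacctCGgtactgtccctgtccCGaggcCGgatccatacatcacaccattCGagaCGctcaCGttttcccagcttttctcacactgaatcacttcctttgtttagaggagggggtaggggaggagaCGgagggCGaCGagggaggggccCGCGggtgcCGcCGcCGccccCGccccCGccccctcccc
Adk: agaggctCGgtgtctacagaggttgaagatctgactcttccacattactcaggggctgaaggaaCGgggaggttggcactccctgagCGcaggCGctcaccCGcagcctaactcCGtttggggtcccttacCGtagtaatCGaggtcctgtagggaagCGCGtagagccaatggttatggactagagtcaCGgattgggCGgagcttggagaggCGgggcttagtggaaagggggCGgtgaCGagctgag
The Ptgds window held 2 CpG, against 19 in Adora1 and 15 in Adk and a median of 6 over 32851 windows of that length. It lies inside the Ptgds gene span given above, which ends at 25470046, while the Adora1 and Adk windows lie outside theirs. The GC box GGGCGG, searched on both strands, occurred 3 times in Adora1, 2 times in Adk and not in Ptgds, and it occurs in 32.7% of all windows. The Ptgds window held ATAAATA, a motif chosen after the sequence was seen, starting 29 bases before the start, and 5.17% of all windows hold it on either strand. These matches describe the letters of the windows and are not sites of binding. In all, 6 of 7 members had an entry, with 15 starts, of which 9 held a GC box. Adora2a was not among them. Low CpG content was not particular to Ptgds, as a start of Slc29a1 (chr17:45592938-45593187) also held 2 CpG and no GC box. The other Adora1 start held 18 CpG and no GC box. A link of CpG content with level was not tested.

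The number of footprints per mRNA was then compared, as the ratio of footprint to mRNA RPKM of libraries of the same name. Gene length cancels in it, but footprints come from coding sequence and mRNA reads from whole transcripts, so the coding share of a transcript enters it. Ptgds at 1.36 ± 0.355, Adk at 1.29 ± 0.180 and Slc29a1 at 0.9997 ± 0.437 (SD, n = 4 WT libraries) lay at percentiles 96.3, 96.2 and 91.1 of the 9673 genes tested, whose median was 0.461. Adora2a at 0.717 ± 0.836 lay at percentile 38.0, and Adora1 at 0.205 ± 0.0218 at percentile 11.0. The percentiles and the median rest on the mean WT footprint RPKM divided by the mean WT mRNA RPKM, not on the mean of library ratios. In WT both receptors lay below the median gene on that scale, at log2 values of −2.31 for Adora1 and −1.39 for Adora2a against −1.12. By library the WT ratios were 0.178 to 0.224 for Adora1 and 1.97, 0.350, 0.349 and 0.202 for Adora2a. In KO the Adora2a ratios were 0.714, 0.872, 0.887 and 0.415, of which 3 lay above the WT median of all genes, and Adora1 spread from 0.105 to 0.333, all below it.

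Between genotypes, the ratio of Slc29a1 did not overlap, KO below WT, as for 2.79% of the 9638 genes with a ratio in every library, of which 4.5% did not overlap in either direction. It was 1.63, 0.779, 0.957 and 0.637 in WT and 0.108, 0.501, 0.574 and 0.532 in KO. KO library 1, with 1 footprint read, was far below the others. The ratio and the interaction of Slc29a1 rest on the same 128 WT and 24 KO footprint reads as its footprint difference, so they are not separate results. In the edgeR interaction of genotype and library kind its log2 difference was −1.01 ± 0.43 (SE, 95% interval −1.91 to −0.11, unadjusted p = 0.0293, adjusted p = 0.410), and −1.19 to −0.77 over the alternatives. It was the 1 member with an unadjusted p under 0.05, as had 10.8% of all genes tested, and 0 members passed the adjusted threshold, as did 0.0% of all genes. DESeq2 called 144 genes here, with no member among them. The other differences were −0.04 ± 0.26 for Adora1 (adjusted p = 0.978), 0.77 ± 0.75 for Adora2a (0.749), −0.19 ± 0.18 for Adk (0.746) and −0.03 ± 0.24 for Ptgds (0.980), each with its SE. Their intervals all included 0, and that of Adora2a ran from −0.77 to 2.31. The Adora2a difference was 0.49 with WT library 4 left out, 1.13 with KO library 4 left out, and 1.26 without WT libraries 1 and 2. For Adk it ran from −0.38 without KO library 4 (unadjusted p = 0.0526, edgeR adjusted p = 0.508) to −0.10 without WT library 4.

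**Figure D4:**
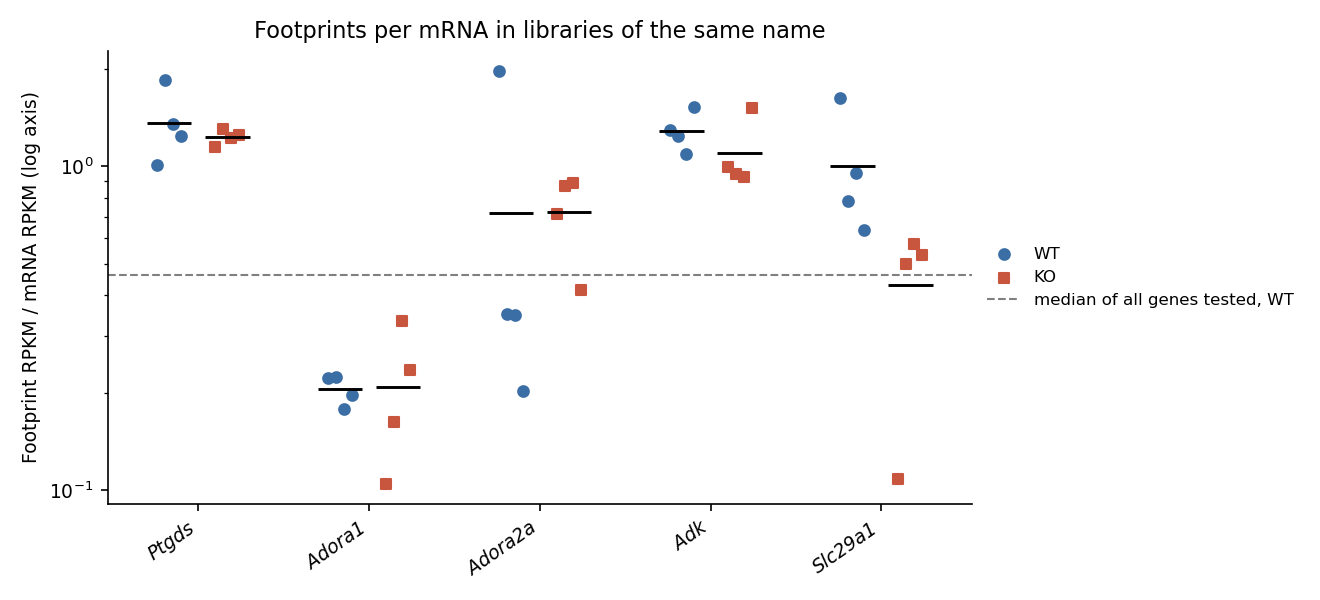
Footprint RPKM over mRNA RPKM of libraries of the same name for the 5 members tested, on a log axis, with WT in blue, KO in red, black bars at the group means and a dashed line at the WT median of all genes tested, 0.461. Slc29a1 is the gene whose groups do not overlap, Adora1 lies under the line in both groups, and 1 WT library sets the Adora2a mean.

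**Figure D5:**
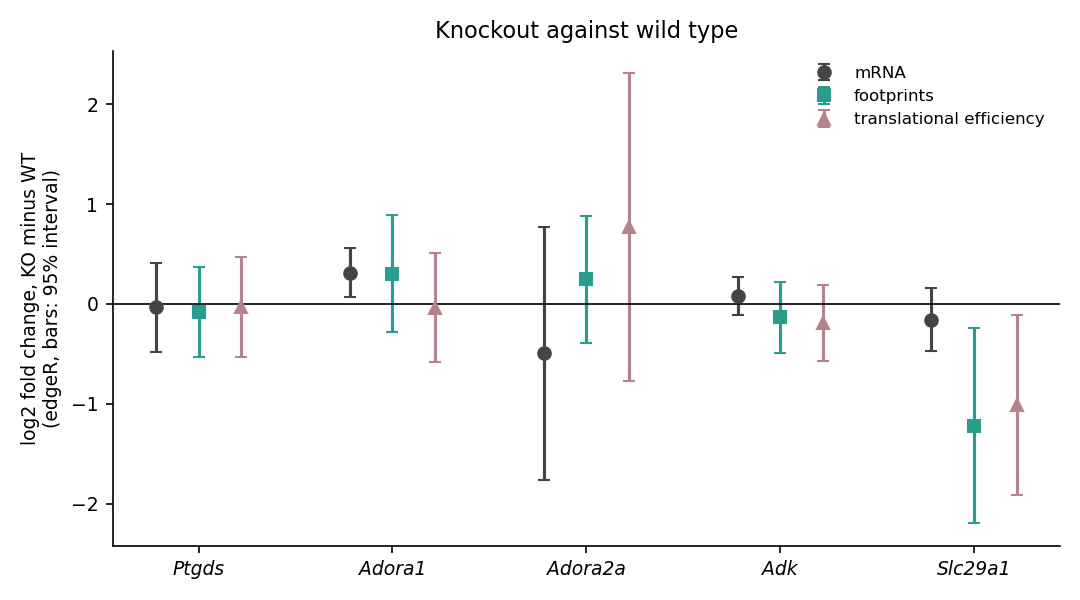
Log2 differences KO minus WT of the 5 members tested, in mRNA, footprints and translational efficiency, from the edgeR fits, with bars of the 95% interval. The intervals of Adora1 mRNA and of Slc29a1 footprints and translational efficiency leave out 0 before adjustment, and no member passed after it. The Slc29a1 values in footprints and translational efficiency share the same footprint reads.

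Of 32 listed genes of adenosine and ATP release, receptors, enzymes and transport, 22 were tested in mRNA and 0 passed in either direction, with 7 positive and 15 negative differences. The median difference was −0.09, against −0.01 over all genes tested. The lowest unadjusted p-values in mRNA were those of Slc29a4, the plasma membrane monoamine and adenosine transporter (−0.54 ± 0.22, SE, edgeR adjusted p = 0.448), and Ampd2, an AMP deaminase (−0.17 ± 0.07, adjusted p = 0.459). Entpd1 and Entpd2, which degrade extracellular ATP, had differences of −0.12 and −0.26. On the positive side were Alpl, tissue-nonspecific alkaline phosphatase (0.26), the nucleotidases Nt5c3 (0.11) and Nt5c3b (0.07), and Ak1, an adenylate kinase (0.05). The other receptors were low, with Adora2b at 2.26 ± 0.316 RPKM in WT and 2.42 ± 0.608 in KO and Adora3 at 0.176 ± 0.0923 and 0.182 ± 0.0716 (SD, n = 4 each). Over all genes tested, the counts to set beside each list were 6342 positive and 6716 negative in mRNA. They were 4201 and 4275 in footprints, and 4880 and 4793 in translational efficiency. In footprints 11 genes of the adenosine list were tested, with 6 positive and 5 negative. In translational efficiency it was 21, with 15 positive and 6 negative, and 0 passed in either. The lowest p of that list in both was that of Nt5c, a cytosolic nucleotidase, named after its values were seen. Its log2 difference was 0.77 ± 0.21 in footprints (SE, unadjusted p = 0.00241, edgeR adjusted p = 0.863) and 0.86 ± 0.22 in translational efficiency (unadjusted p = 0.000843, adjusted p = 0.208), against −0.07 in mRNA. Adora2b, with 49 footprints in all, had 1.29 ± 0.55 in translational efficiency (SE, edgeR adjusted p = 0.401).

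All 14 listed genes of adenosine receptor transduction were tested in mRNA, and 0 passed, with 6 positive and 8 negative differences and a median of −0.05. The G-protein subunit Gnai2, which couples the A1 receptor, had a difference of −0.18 ± 0.06 (SE, edgeR adjusted p = 0.406). Gnao1 (−0.06), Adcy5 (−0.26) and Gnal (−0.19), the latter pair serving the A2a receptor in the striatum, were also negative, and Adcy5 is 1 of 3 genes shared with the striatal list. The potassium channel subunits that A1 receptors open were positive in mRNA, at 0.38 ± 0.15 for Kcnj9 (SE, adjusted p = 0.442), 0.21 for Kcnj3 and 0.22 for Kcnj6, as was adenylyl cyclase Adcy1 at 0.37. The same genes were negative in footprints, at −0.10 for Kcnj9, −0.28 for Kcnj3, −0.58 for Kcnj6 and −0.38 for Adcy1. In translational efficiency they were negative, at −0.48 for Kcnj9, −0.47 for Kcnj3, −0.80 ± 0.29 for Kcnj6 (SE, edgeR adjusted p = 0.344) and −0.77 ± 0.30 for Adcy1 (adjusted p = 0.362). That term is the footprint change relative to the mRNA change. Because the genes were named for their positive mRNA differences, it was lowered in advance and is not a separate result. The signs of these genes were not particular to them. The 9 neuronal markers had 7 positive and 2 negative differences in mRNA (median 0.18). They had 2 and 7 in footprints (−0.12) and 2 and 7 in translational efficiency (−0.33). A relation between the marker and channel values was not tested. In footprints the 14 transduction genes had 4 positive and 10 negative differences, in translational efficiency 8 and 6, and 0 passed in either.

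Of 25 listed prostaglandin genes, 24 were in the table, 11 were tested in mRNA and 0 passed, with 4 positive and 7 negative differences and a median of −0.01. The cyclooxygenases upstream of Ptgds, Ptgs1 and Ptgs2, had differences of 0.17 and 0.04, Ptges2 and Ptgis of 0.12 and 0.00. Negative in mRNA were the exporter Abcc4 (−0.16), Akr1b3 (−0.13), the catabolic enzyme Hpgd (−0.16) and Ptges3 (−0.07). The haematopoietic synthase Hpgds stood at 0.959 ± 0.101 RPKM in WT and 0.942 ± 0.0470 in KO, and the DP1 receptor Ptgdr at 0.251 ± 0.0804 and 0.246 ± 0.135 (SD, n = 4 each). In the same libraries Ptgds mRNA was at 465 ± 145 and 460.1 ± 40.7 RPKM. The mRNA of the brain synthase was thus far more abundant than that of its haematopoietic counterpart or of the receptor of its product. In footprints 6 genes were tested, with 5 positive and 1 negative, in translational efficiency 8, with 6 and 2, and 0 passed in either. Ptges3 was on the positive side in both, at 0.78 ± 0.30 in footprints (SE, edgeR adjusted p = 0.875) and 0.91 ± 0.29 in translational efficiency (unadjusted p = 0.00513, adjusted p = 0.266), the lowest p of the list, and Hpgd was at 0.74 ± 0.51 in translational efficiency (adjusted p = 0.627).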

How the data were processed

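Tissue labelled brain gave 4 WT and 4 KO ribosome footprint libraries and 4 mRNA libraries of each genotype under the same names. The submitters' processing notes name TopHat2 and mm10 with no role, and the counting program, annotation release and filters are not given in the sources used here. The deposited gene table holds raw counts of both kinds, and the RPKM tables were made by the authors from them with their own library sizes, per the file headers and values. Members and lists were chosen with earlier results of these data known.

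The fits used edgeR 4.0.16 under R 4.3.3 on the counts (TMM, quasi-likelihood test, Benjamini-Hochberg adjustment over all genes tested, threshold 0.05). Tested were 13058 genes for mRNA (mean RPKM not under 1), 8476 for footprints (filterByExpr, minimum count 10) and 9673 for translational efficiency (mean RPKM not under 1 in either kind), defined as the genotype by kind interaction term. Differences are KO minus WT, with intervals from the SE. Members under the filters were compared by exact permutation. Marker sums are sums of RPKM. Relations to them, and between kinds of library, were chosen after the files were seen, and all 8 and 7 computed enter the adjustment.

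Named were the members, up to 4 genes of each pathway list with the lowest unadjusted p per direction in the mRNA fit, and the 3 genes most like each member. Other genes named for their level or p (Adora2b, Adora3, Hpgds, Ptgdr, Nt5c) were chosen after their values were seen. Alternatives were DESeq2 1.42.0, limma 3.58.1 on log2 RPKM, other filters, scalings and blocks, and leaving out libraries. The fits were tested on simulated data.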

Additional observations from a re-analysis of the deposited data

Results flagged for a closer look

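In 42 groups of 4 libraries, each a member's level or footprint-to-mRNA ratio in 1 genotype, the highest or lowest library was set against the rest, and 5 groups held a library far from the others. Chance gives about 1 in 20 groups of continuous values, or 2.1 of 42, but 2 of the 5 are the same Ada read seen as a level and as a ratio beside libraries at 0, and these cannot be set against that rate. The Adora2a ratio in WT library 1 was 1.97, with the other WT libraries at 0.202 to 0.350. That library held the lowest Adora2a mRNA of its group. The Adk ratio in KO library 4 was 1.52, with the other KO libraries at 0.927 to 0.998. The Slc29a1 ratio in KO library 1 was 0.108, with the others at 0.501 to 0.574, and it rested on 1 footprint read. For Ada, WT library 1 had a footprint level of 0.270 RPKM and a ratio of 0.521, both from 1 read, and the other WT libraries were at 0.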

How the results depend on the processing

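Of 220 values of members under alternatives, 209 kept their sign, 11 changed it and 0 passed the threshold, with a lowest adjusted p of 0.206. The count of genes called, 0 in each comparison by edgeR, became 87 in mRNA, 4 in footprints and 144 in translational efficiency with DESeq2, and 24 in mRNA and 86 in footprints with no filter on low values. It became 3 in footprints with protein-coding genes alone. Leaving out each library gave 0 to 2 calls in mRNA (2 without KO library 4), 0 in footprints and 0 to 4 in translational efficiency (4 without KO library 2, 1 without WT library 3, 1 without WT library 4).

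Same-number WT and KO libraries deviated together at correlations of −0.238 to 0.0309 in mRNA and −0.247 to 0.0750 in footprints, and the labels do not say that the numbers pair them. With the replicate number as a block, 0 genes were called in mRNA, 0 in footprints and 1 in translational efficiency, and with the library name as a block, added after seeing the data, 5 in translational efficiency. The Ptgds mRNA difference, −0.03, was 0.021 under the block.

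The same difference was 0.044 by limma with a pseudocount of 0.1 and 0.044 with 1, and −0.23 to 0.11 when 1 library was left out. On leaving out 1 library at a time, Ptgds ran from −0.18 to 0.033 in footprints and from −0.18 to 0.076 in translational efficiency, and Adora1 from −0.26 to 0.16 in translational efficiency. Without WT libraries 1 and 2 together, the last was 0.060 and Ptgds in footprints −0.21. The cause of these changes was not tested. Footprint depth limits Slc29a1, Nt5e and Ada most.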
